A study of Mus musculus with 16 samples.

Results

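The mouse Cyp3a family was followed in liver polyadenylated RNA of wild-type and humanized mice given vehicle or TCPOBOP, a synthetic compound that activates mouse CAR, the constitutive androstane receptor. All Cyp3a symbols with a row in the deposited count table were taken, which gave 9 members of 24970 genes: Cyp3a11, Cyp3a13, Cyp3a16, Cyp3a25, Cyp3a41a, Cyp3a41b, Cyp3a44, Cyp3a57 and Cyp3a59. The study asked how TCPOBOP acts in liver when human receptors stand in for the mouse ones. There were 4 groups of 4 mice. Wild-type C57BL/6 Ntac mice received either the vehicle, 2% DMSO in corn oil, or TCPOBOP at 3 mg/kg. Mice of the strain labelled humanized PXR-CAR-CYP3A4/3A7 received the same vehicle or the same dose. TCPOBOP was given in 2 administrations 24 h apart, over 48 h. The sources used here do not state sex, age, litter or how much of the mouse Cyp3a cluster the humanized line lacks, and human PXR, CAR and CYP3A transcripts were not analysed here.

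CYP3A enzymes are heme-containing monooxygenases of the endoplasmic reticulum that oxidise many drugs, bile acids and steroids with electrons passed on by NADPH-cytochrome P450 reductase. In hepatocytes their genes are classic targets of the pregnane X receptor (PXR, gene Nr1i2) and CAR (gene Nr1i3), nuclear receptors that bind DNA with RXR at paired hexamers related to AGTTCA or AGGTCA. Cyp3a11 is known as the main constitutive and inducible form of adult mouse liver and Cyp3a25 as a further constitutive form. Cyp3a16 is known from fetal and neonatal liver, Cyp3a41 and Cyp3a44 as female-predominant forms, and Cyp3a13 as a form that is also prominent in intestine.

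All members lie on chromosome 5 of mm10 and have 13 exons in the annotation. Cyp3a13 (NM_007819, chr5:137892932-137921619, minus strand) stands apart from the others, which form 1 cluster. In order along the chromosome the cluster holds Cyp3a57 (NM_001100180, chr5:145345287-145390926, plus strand), Cyp3a16 (NM_007820, chr5:145436309-145469723), Cyp3a41b (NM_001105159, chr5:145558664-145584730) and Cyp3a41a (NM_017396, chr5:145694049-145720136). It continues with Cyp3a44 (NM_177380, chr5:145773983-145805874), Cyp3a11 (NM_007818, chr5:145854426-145879964), Cyp3a25 (NM_019792, chr5:145977196-146009617) and Cyp3a59 (NM_001105160, chr5:146079267-146113285, plus strand). The 6 genes between Cyp3a57 and Cyp3a59, the genes at its ends, are on the minus strand.

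By sequence the 9 transcripts fell into 2 sets and a single gene. Cyp3a11, Cyp3a16, Cyp3a41a, Cyp3a41b and Cyp3a44 were 91.6 to 99.9% identical over their aligned parts, and are called the Cyp3a11 set here. Cyp3a25, Cyp3a57 and Cyp3a59 were 92.9 to 97.0% identical, and are called the Cyp3a25 set. Between the sets identity was 73.2 to 74.6%, and Cyp3a13 was 72.1 to 74.5% identical to any other member. The stretch of 30 coding bases for the heme-binding loop is shown from the GENCODE M21 transcripts as a short example of how the members differ, 5′ to 3′, with the bases that differ from Cyp3a11 in capitals. The number of such bases does not follow the sets: it was 1 for Cyp3a16, 2 for Cyp3a57 and 3 for each of the others.
Cyp3a11: tttgggaatggacccaggaactgccttggc
Cyp3a16: tttgggaatggacccaggaactgcAttggc
Cyp3a41a, Cyp3a41b and Cyp3a44: tttggAaTtggacccaggaactgcAttggc
Cyp3a25: tttggAaatggacccaggaactgcAtAggc
Cyp3a57: tttgggaatggacccaggaactgcAtAggc
Cyp3a59: tttggAaatggacccaggaactgcctAgAc
Cyp3a13: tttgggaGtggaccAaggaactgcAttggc

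**Figure D1:**
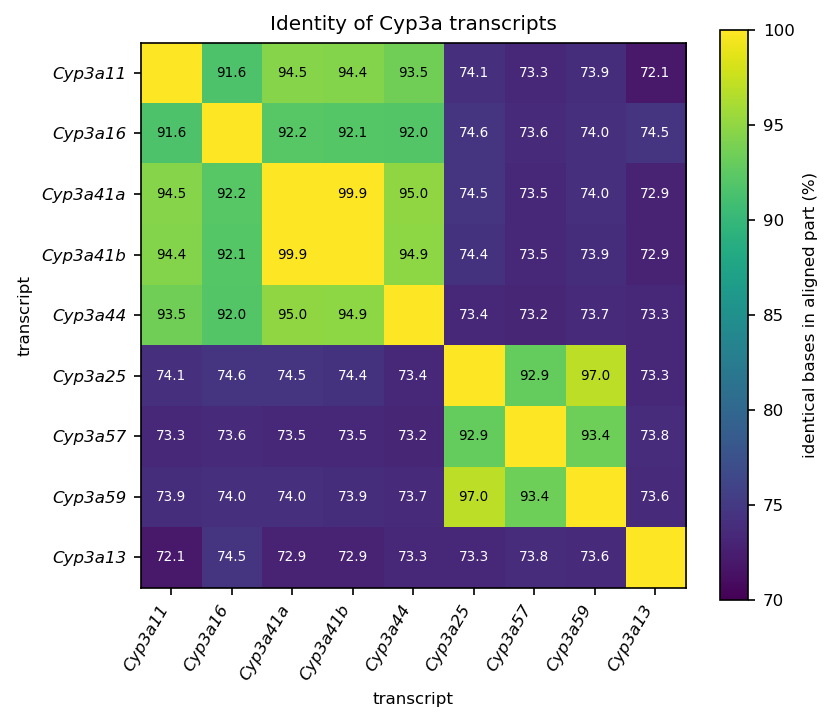
Percent identical bases in the aligned part of each pair of Cyp3a transcripts (rows and columns are the 9 transcripts, colour from 70 to 100%). The block of Cyp3a11, Cyp3a16, Cyp3a41a, Cyp3a41b and Cyp3a44 lies between 91.6 and 99.9%, the block of Cyp3a25, Cyp3a57 and Cyp3a59 between 92.9 and 97.0%, and Cyp3a13 is at most 74.5% identical to any other.

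The sets matter for the counts, because reads from near-identical transcripts cannot be assigned to 1 gene with certainty. Of all 50-base windows of its transcript, Cyp3a41a shared 98.6% and Cyp3a41b 93.5% with another member, so the values of this pair are uncertain and are best read together. The share was 26.3% for Cyp3a25 and 28.0% for Cyp3a59, mostly with each other, 18.2% for Cyp3a44, 14.7% for Cyp3a11, 10.5% for Cyp3a16 and 8.88% for Cyp3a57. Cyp3a13 shared none. How the authors' counting treated reads with several matches is not stated in those sources.

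The 250 bases before the transcription start, from RefSeq on GRCm38.p6, followed the same sets, with 80.9 to 99.6% identity within the Cyp3a11 set, 90.3 to 95.6% within the Cyp3a25 set and 63.7 to 69.2% between them. They are shown for Cyp3a11 and Cyp3a44, which rose with TCPOBOP, for Cyp3a25 and Cyp3a57, for which no rise passed the test, and for Cyp3a13, 5′ to 3′, with AGTTCA and AGGTCA on either strand in capitals.
Cyp3a11, chr5:145879855-145880104, minus strand: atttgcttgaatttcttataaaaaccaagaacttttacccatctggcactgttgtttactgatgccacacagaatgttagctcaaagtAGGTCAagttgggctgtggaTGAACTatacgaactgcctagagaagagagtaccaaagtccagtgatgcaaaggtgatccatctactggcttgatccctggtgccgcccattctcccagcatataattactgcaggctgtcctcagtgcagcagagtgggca
Cyp3a44, chr5:145805875-145806124, minus strand: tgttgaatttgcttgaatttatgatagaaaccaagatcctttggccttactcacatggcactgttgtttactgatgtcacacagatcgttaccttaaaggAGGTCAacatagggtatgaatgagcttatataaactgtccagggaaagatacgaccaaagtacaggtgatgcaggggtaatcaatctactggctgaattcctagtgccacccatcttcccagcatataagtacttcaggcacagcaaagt
Cyp3a25, chr5:146009619-146009868, minus strand: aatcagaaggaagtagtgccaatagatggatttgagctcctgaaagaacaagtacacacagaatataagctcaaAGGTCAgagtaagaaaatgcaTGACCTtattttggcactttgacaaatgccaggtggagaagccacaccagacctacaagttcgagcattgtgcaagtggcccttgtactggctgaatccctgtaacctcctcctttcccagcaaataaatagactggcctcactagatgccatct
Cyp3a57, chr5:145345019-145345268, plus strand: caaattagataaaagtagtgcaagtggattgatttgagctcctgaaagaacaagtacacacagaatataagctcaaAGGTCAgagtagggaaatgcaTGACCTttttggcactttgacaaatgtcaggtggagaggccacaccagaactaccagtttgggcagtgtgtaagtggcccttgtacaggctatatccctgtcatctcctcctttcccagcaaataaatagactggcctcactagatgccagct
Cyp3a13, chr5:137921620-137921869, minus strand: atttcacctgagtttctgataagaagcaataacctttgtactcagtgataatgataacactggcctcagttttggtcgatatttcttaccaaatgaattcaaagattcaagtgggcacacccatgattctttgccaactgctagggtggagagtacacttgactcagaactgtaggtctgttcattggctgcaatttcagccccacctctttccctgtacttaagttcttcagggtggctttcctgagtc

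AGTTCA was found in 3 of the 9 promoters, those of Cyp3a11, Cyp3a41a and Cyp3a41b, and in 11.8% of all 32851 RefSeq promoters of the same length, both strands searched. AGGTCA was found in 5 of the 9, those of Cyp3a11, Cyp3a25, Cyp3a44, Cyp3a57 and Cyp3a59, and in 14.0% of all. Of the spaced pairs, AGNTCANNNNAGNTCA (DR4), which can overlap either hexamer, occurred in the promoter of Cyp3a11 alone among the members, from 172 to 157 bases before the start, and in 0.103% of all promoters. Neither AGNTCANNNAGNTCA (DR3, 0.0517% of all promoters) nor TGANCTNNNNNNAGNTCA (ER6, 0.0304%) occurred in these windows of the members. A pair of AGGTCA hexamers in opposite orientation with 15 bases between them was noticed in all 3 members of the Cyp3a25 set, 148 to 177 bases before the start, and occurred in 5 promoters in all (0.0152%). This last pattern was chosen after the sequences were seen, and each match describes letters only.

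Libraries held 11827994 to 19483951 counts in wild-type vehicle mice, 30228724 to 37998473 in wild-type TCPOBOP mice, 12612610 to 16904182 in humanized vehicle mice and 14019983 to 16755802 in humanized TCPOBOP mice, so depth was highest in the group where several members rose. Kept at 1 row per gene, as in the fit, the totals ran from 6831626 to 22331760 counts. Levels are CPM, counts scaled to the size of each library with TMM factors, as mean ± SD over 4 mice, and changes are log2 ± SE from edgeR with Benjamini-Hochberg adjusted p over 12913 genes and a threshold of 0.05. The labels give each sample a group and a number but no batch or litter, so p-values measure the spread between these samples, which may be partly technical. Nr1i3, the mouse CAR gene, was at 100.3 and 52.3 CPM in the wild-type vehicle and TCPOBOP groups and at 2.20 and 3.45 CPM in the humanized ones. The hepatocyte markers were present in every group, with Alb at 49738, 16881, 29019 and 29104 CPM in the same order. Markers of other cell types are given below with the results.

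In wild-type vehicle liver Cyp3a11 was the most abundant member. Its level was 1281, 2018, 2881 and 5756 CPM in the 4 mice, a 4.50-fold range, with a mean of 2984 ± 1960 CPM. Cyp3a25 was at 601, 229, 1032 and 982 CPM. Cyp3a13 was at 268, 110.0, 208 and 198 CPM, and its spread relative to the mean was the smallest of the 4 well-expressed members (coefficient of variation 33.2%). Cyp3a59, the neighbour of Cyp3a25 at the high end of the cluster, was at 47.4, 21.1, 101 and 122 CPM. The second mouse had the lowest level of Cyp3a25, Cyp3a59 and Cyp3a13, but not of Cyp3a11, which was lowest in the first.

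Divided by transcript length, the wild-type vehicle level was 1273 CPM per kb for Cyp3a11, 356 for Cyp3a25, 66.3 for Cyp3a13 and 36.6 for Cyp3a59. The ranges over the mice overlapped between Cyp3a13 (37.2 to 90.6) and Cyp3a59 (10.6 to 61.1), while that of Cyp3a11 (546 to 2456) lay above that of Cyp3a25 (114 to 516). The remaining members were near the limit of detection, with 26 counts for Cyp3a44, 9 for Cyp3a16, 1 for Cyp3a57 and 0 for Cyp3a41a and Cyp3a41b over the 4 libraries. Of the summed level per kb of the family, Cyp3a11 made up 71.6 ± 12.6%, Cyp3a25 21.5 ± 9.49%, Cyp3a13 4.75 ± 3.20% and Cyp3a59 2.06 ± 0.75% (SD, n = 4).

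**Figure D2:**
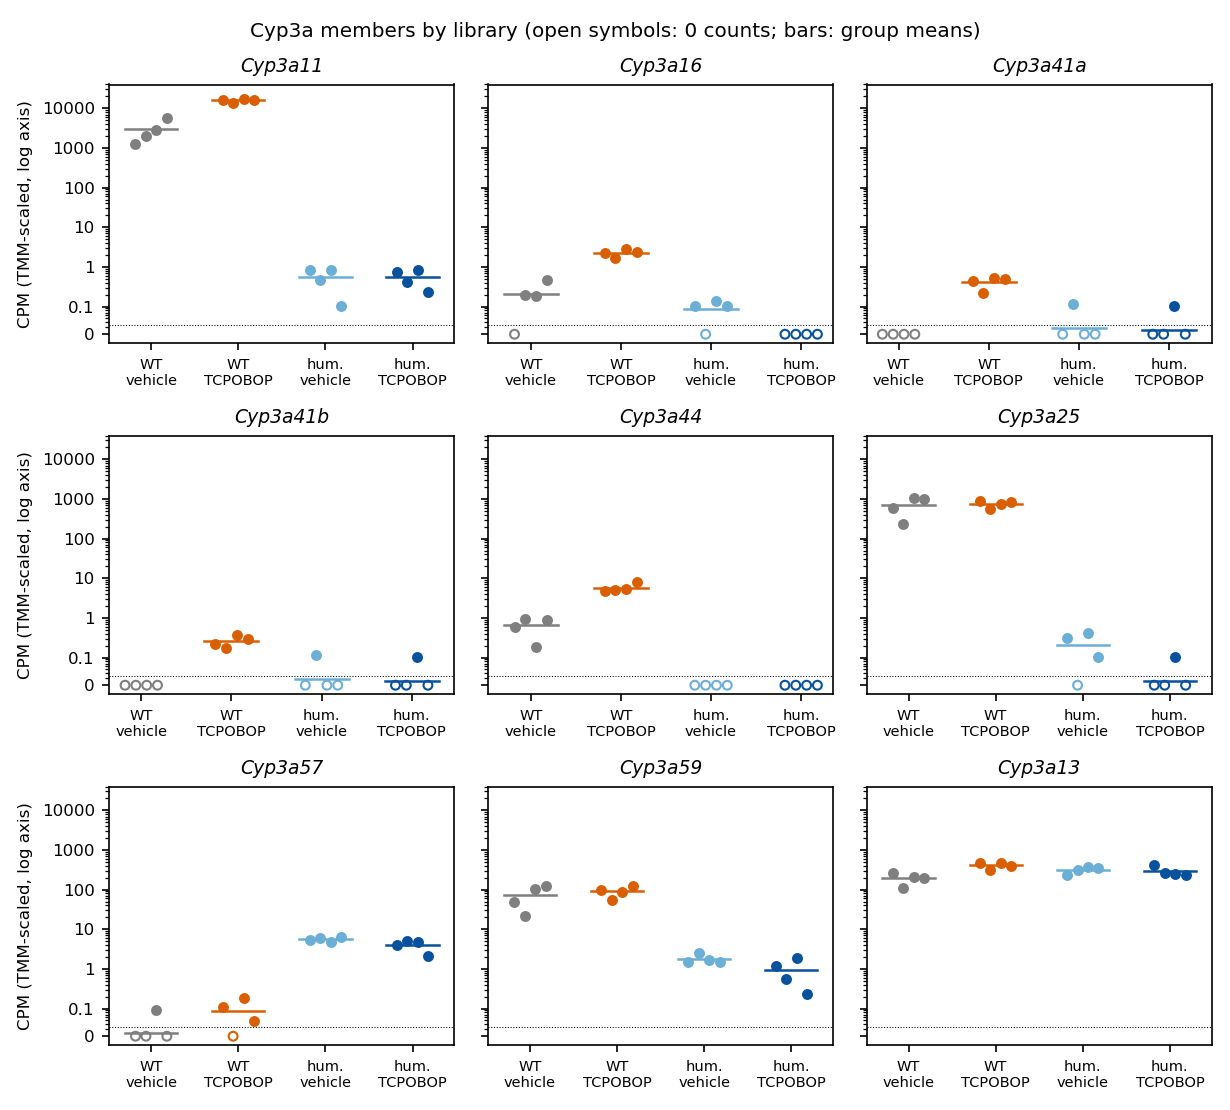
CPM (log axis, with 0 below the dotted line) of each Cyp3a member in each of the 16 libraries, by group; filled points are libraries with counts, open points libraries with 0 counts, and bars are group means. Cyp3a11, Cyp3a16, Cyp3a41a, Cyp3a41b, Cyp3a44 and Cyp3a13 lie higher in all 4 wild-type TCPOBOP mice than in the wild-type vehicle mice, and Cyp3a57 lies higher in every humanized library than in any wild-type library.

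In wild-type liver Cyp3a11, Cyp3a16, Cyp3a44 and Cyp3a13 rose with TCPOBOP, while no change of Cyp3a25, Cyp3a57 or Cyp3a59 passed the test. Of the 7 members tested 4 rose and 0 fell, against 8.1% of all tested genes that rose and 4.99% that fell, or 13.1% in either direction. Cyp3a16 and Cyp3a44 entered the fit only through the wild-type TCPOBOP mice, where they are high. Their calls are thus tied to that entry and add little to this count. Cyp3a41a and Cyp3a41b had too few counts for the fit. In bulk tissue a change in RNA per cell and a change in the share of cells that make it cannot be told apart.

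Cyp3a11 reached 16060, 13703, 17337 and 16679 CPM in the 4 wild-type TCPOBOP mice. Every one of these lay above the highest vehicle mouse, and the mean of 15945 ± 1583 CPM was 5.34-fold that of the vehicle mice. The fitted change was 2.42 ± 0.38 (adjusted p = 0.000259). The coefficient of variation over the mice was 9.93% under TCPOBOP and 65.7% under vehicle, so the treated mice were the more uniform group.

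Cyp3a44 rose from 4, 10, 2 and 10 counts to 86, 112, 114 and 171 counts. In CPM this was 0.659 ± 0.354 against 5.82 ± 1.63, with no overlap between the groups and a fitted change of 3.11 ± 0.41 (adjusted p = 0.000307). Cyp3a16 rose from 0, 2, 2 and 5 counts to 42, 37, 60 and 50 counts, or from 0.208 ± 0.187 to 2.29 ± 0.48 CPM. Its groups did not overlap either, and the fitted change was 3.27 ± 0.48 (adjusted p = 0.000261). When all libraries were thinned to the shallowest one, Cyp3a44 still rose (3.29, adjusted p = 0.0013), while Cyp3a16 no longer had enough counts for the test.

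Cyp3a41a had 0 counts in all 4 vehicle mice and 8, 5, 11 and 10 counts under TCPOBOP, and Cyp3a41b had 0 against 4, 4, 8 and 6. With the vehicle group set to a floor of 3 counts in all, the levels were at least 5.34-fold and at least 3.45-fold higher. An exact two-sided permutation test gave p = 0.0286 for each, the smallest value that 4 against 4 mice allow. The test was run only where a group held more than 3 counts, which wild-type TCPOBOP alone did for these genes. The adjustment over the 4 tests run (0.0286) therefore covers only comparisons picked by that high group, and adds no support. As most of their sequence is shared, these are not independent observations. All 5 genes of the Cyp3a11 set were thus higher in 4 of 4 treated mice than in any vehicle mouse. Groups without overlap were seen for 20.9% of all tested genes, which do not include Cyp3a41a and Cyp3a41b. Of the 5 only Cyp3a11 was not taken up through the wild-type TCPOBOP mice alone, so the tally adds no support for the set.

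Cyp3a11 exceeded Cyp3a44, the next most abundant gene of its set, 2390 ± 522-fold per kb under TCPOBOP and 5436 ± 5207-fold under vehicle. Whether some counts of the rare genes of this set came from Cyp3a11 reads was not tested.

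Cyp3a25 was at 875, 575, 743 and 859 CPM under TCPOBOP, all inside the vehicle range of 229 to 1032 CPM. Its fitted change was 0.10 ± 0.35 (adjusted p = 0.905), and it changed sign, to -0.19, without the second vehicle mouse. Cyp3a59 was at 96.9, 56.0, 85.8 and 125 CPM, again overlapping the vehicle mice, with a change of 0.32 ± 0.41 (adjusted p = 0.709). Cyp3a57 had 0, 0, 1 and 0 counts under vehicle and 2, 0, 4 and 1 under TCPOBOP, a ratio of 3.30 with a 95% counting interval from 0.424 to 149 (adjusted p = 0.474). The intervals of Cyp3a25 and Cyp3a59 leave room for moderate changes in either direction.

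Cyp3a13 rose to 480, 314, 465 and 400 CPM in the wild-type TCPOBOP mice, above the highest vehicle mouse in 4 of 4. The mean went from 196 ± 65.1 to 415 ± 75.6 CPM, a change of 1.08 ± 0.26 (adjusted p = 0.00824). It is the member that rose without a 50-base window in common with Cyp3a11 or any other.

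The family total followed Cyp3a11. It was 3965 ± 2257 CPM (2198 to 7059) in wild-type vehicle and 17223 ± 1771 CPM (14656 to 18640) in wild-type TCPOBOP mice, a 4.34-fold difference in means, or 0.401% and 1.83% of the counts kept at 1 row per gene. Cyp3a11 went from 71.6% to 92.3 ± 0.87% of the level per kb, and Cyp3a25 from 21.5% to 5.15 ± 0.63%. Per kb, the ratio of Cyp3a11 to Cyp3a25 lay between 1.82 and 7.52 in vehicle mice and between 15.7 and 20.3 in treated mice. The ratio of Cyp3a25 to Cyp3a59, both of the Cyp3a25 set, was 10.4 ± 1.90 and 8.66 ± 1.41. The rare forms stayed rare, with Cyp3a44 at 0.0402% and Cyp3a16 at 0.0178% of the treated family.

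**Figure D3:**
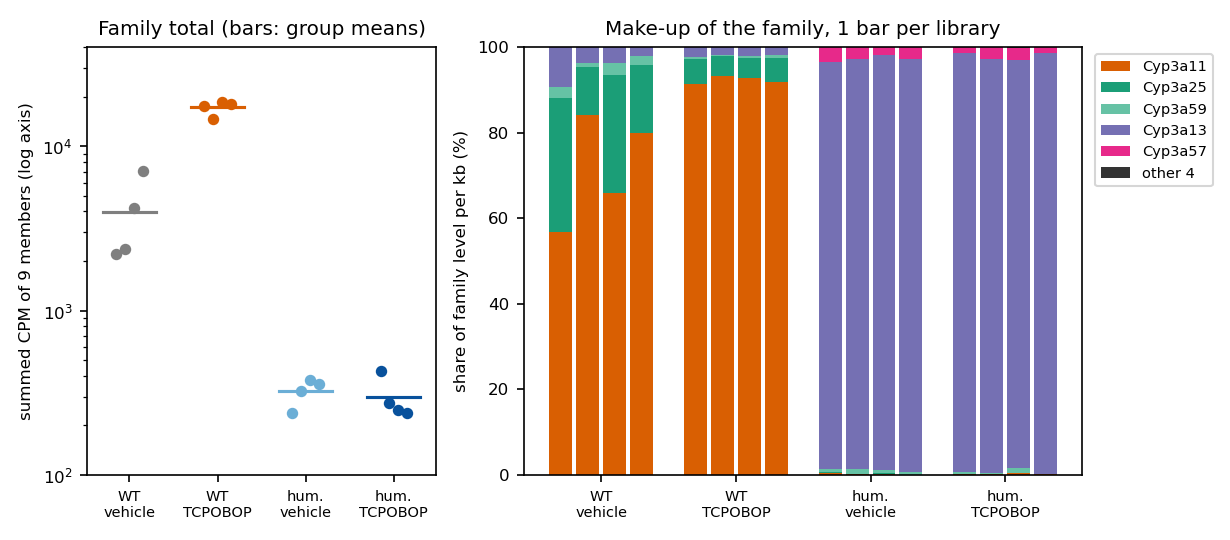
Left, summed CPM of the 9 members (log axis) in each library by group, with bars at group means of 3965, 17223, 324 and 298 CPM. Right, the share of each member in the family level per kb (%), 1 bar per library in replicate order; Cyp3a11 fills most of each wild-type bar and Cyp3a13 at least 95.1% of each humanized bar.

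The hepatocyte marker list did not rise with the family. Its summed level over 10 genes was 68237 to 110817 CPM in wild-type vehicle and 31866 to 49274 CPM in wild-type TCPOBOP mice, and 2 of 10 fell, Alb and Ttr. Enterocyte markers were looked at because Cyp3a13 is also an intestinal form. Their sum was 149 to 193 CPM under vehicle and 236 to 321 CPM under TCPOBOP, most of it Anpep (145.5 and 274.8 CPM), which hepatocytes also make. Anpep rose (0.92 ± 0.18, adjusted p = 0.0015), and Fabp2, the other enterocyte marker with enough counts for the test, fell (-0.77 ± 0.23, adjusted p = 0.0336). The defining Alpi and Cdx2 were at 0 in all 4 groups. Of the Kupffer, endothelial, stellate and cholangiocyte markers 0 changed, and of 2 tested acinar markers 1 fell, Cela1, with Prss1, Pnlip and Amy2a5 at 0. The part of these shifts in the results was not tested.

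In humanized liver the cluster was nearly silent and Cyp3a13 made up almost the whole mouse family. Under vehicle 4 of the 7 tested members were lower than in wild-type liver and 1 was higher, against 8.95% and 7.11% of all tested genes, or 16.1% in either direction. Under TCPOBOP 5 were lower and 1 higher, against 12.8% and 11.8%, or 24.6% in either direction. Cyp3a57 entered the fit only through humanized libraries, and Cyp3a16 and Cyp3a44 only through wild-type TCPOBOP libraries. Where the group of entry is one of those compared, their calls are tied to that entry. The humanized strain lacks part of the mouse cluster by design, and the members it lacks are not named in the labels.

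Cyp3a11 held 8, 4, 6 and 1 counts in the humanized vehicle mice and 5, 3, 8 and 2 in the humanized TCPOBOP mice, that is 0.560 ± 0.350 and 0.553 ± 0.273 CPM. Against wild-type mice the changes were -12.38 ± 0.62 under vehicle (adjusted p = 6.73e-10) and -14.78 ± 0.66 under TCPOBOP (adjusted p = 1.92e-10). Cyp3a25 held 3, 0, 3 and 1 counts under vehicle and 0, 0, 1 and 0 under TCPOBOP. It was lower than in wild-type mice by a change of -11.71 ± 0.62 under vehicle (adjusted p = 1.21e-09), and under TCPOBOP the wild-type level exceeded the humanized one by a ratio of 24296, with a 95% counting interval from 4360 to 959647. Both genes, the most abundant of the wild-type cluster, were thus left with at most 8 counts in any humanized library. Groups without overlap between the strains were seen for 26.4% of all tested genes under vehicle and 27.4% under TCPOBOP.

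The rare genes of the Cyp3a11 set were close to or at 0. Cyp3a44 had 0 counts in all 8 humanized libraries, at least 7.77-fold lower than wild-type under vehicle (adjusted p = 0.00894) and at least 62.5-fold lower under TCPOBOP (adjusted p = 1.39e-05). Cyp3a16 had 1, 0, 1 and 1 counts under vehicle and 0 in all 4 mice under TCPOBOP. Under TCPOBOP it was at least 24.5-fold lower than in wild-type mice (adjusted p = 2.18e-05), while under vehicle the ratio of wild-type to humanized was 2.69, with an interval from 0.672 to 15.5 (adjusted p = 0.276). Cyp3a41a and Cyp3a41b had the same humanized counts, 1 over each group, and under TCPOBOP the wild-type level was higher by 13.2 (2.22 to 537) and 8.54 (1.38 to 353). The exact permutation p was 0.0286 for both, from tests run only because wild-type TCPOBOP held more than 3 counts.

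In each humanized group Cyp3a59 and Cyp3a57, the genes at the 2 ends of the cluster, held more counts than any other cluster member. Cyp3a59 held 14, 22, 12 and 14 counts under vehicle and 8, 4, 18 and 2 under TCPOBOP, or 1.79 ± 0.53 and 0.955 ± 0.710 CPM. It was lower than in wild-type mice by a change of -5.35 ± 0.53 under vehicle (adjusted p = 1.54e-05) and -6.52 ± 0.58 under TCPOBOP (adjusted p = 5.91e-07). Cyp3a57 went the other way, with 52, 51, 34 and 62 counts under vehicle and 27, 37, 47 and 18 under TCPOBOP, or 5.64 ± 0.73 and 4.02 ± 1.35 CPM. All 8 humanized mice lay above all 8 wild-type mice, which held at most 4 counts each. Under vehicle the ratio to wild-type was 222, with an interval from 39.4 to 8807 (adjusted p = 3.63e-06), and under TCPOBOP the change was 5.40 ± 0.49 (adjusted p = 8.21e-07). The 2 transcripts were 93.4% identical, with 7.07% of the 50-base windows of Cyp3a57 also found in Cyp3a59. Whether reads of one were counted for the other was not tested. Nor was it tested whether reads of human CYP3A transcripts were counted for mouse members in the humanized mice.

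Cyp3a13, which lies outside the cluster, was at 232, 313, 370.0 and 349 CPM in humanized vehicle mice and at 425, 268, 242 and 236 CPM in humanized TCPOBOP mice. Over the 4 groups the order of its means was wild-type TCPOBOP (415 ± 75.6), humanized vehicle (316 ± 60.9), humanized TCPOBOP (292 ± 89.3) and wild-type vehicle (196 ± 65.1), and each neighbouring pair in this order overlapped. Against wild-type the change was 0.69 ± 0.26 under vehicle (adjusted p = 0.0716, 3 of 4 mice above) and -0.51 ± 0.26 under TCPOBOP (adjusted p = 0.156, 3 of 4 mice below). Without the first humanized TCPOBOP mouse both passed (adjusted p = 0.0351 and 0.0469). Without the first wild-type vehicle mouse the change under vehicle also did, at a log2 change of 0.86. Over 22 alternatives adjusted p ranged from 0.0351 to 0.171 and from 0.0469 to 0.292.

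The mouse family total was 324 ± 60.9 CPM in humanized vehicle and 298 ± 89.6 CPM in humanized TCPOBOP mice, 12.2-fold and 57.8-fold below wild-type. Cyp3a13 made up 96.1 ± 0.82% and 97.2 ± 1.32% of the level per kb, Cyp3a57 2.63 ± 0.59% and 2.08 ± 0.84%, and Cyp3a59 0.826 ± 0.257% and 0.483 ± 0.413%. Without Cyp3a13 the total was 8.34 ± 0.59 and 5.61 ± 2.17 CPM. The human CYP3A transcripts of these mice are not part of this total. Markers of other cell types also differed between the strains. Under vehicle 6 of 8 Kupffer cell markers were lower in humanized mice, with a sum of 214 to 386 against 408 to 868 CPM, and 2 of 7 sinusoidal endothelial markers, with a sum of 171 to 204 against 307 to 551 CPM. Among hepatocyte markers 1 of 10 was lower, Alb (-0.78 ± 0.24). Both tested enterocyte markers, Anpep and Fabp2, were lower, and the enterocyte sum was 89.1 to 129.5 CPM against 149 to 193 CPM in wild-type mice. Under TCPOBOP 0 of 8 Kupffer cell markers passed the test and 3 of 7 endothelial markers were lower, with an endothelial sum of 92.1 to 275 against 288 to 358 CPM. Of the hepatocyte markers 3 of 10 were then higher, Ttr, Apoa2 and Alb (0.79 ± 0.24), so Alb lay on opposite sides under the 2 treatments. Anpep was lower (-0.93 ± 0.18) and Fabp2 higher (1.04 ± 0.23). Of 7 stellate markers 1 was lower under each treatment, Reln. Of 5 tested cholangiocyte markers 1 was higher under each treatment, Sox9 under vehicle and Spp1 under TCPOBOP. The acinar marker Cela1 was lower under vehicle (-0.93 ± 0.27) and higher under TCPOBOP (1.24 ± 0.27). The part of these differences in the family's values was not tested.

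No member passed the test for TCPOBOP against vehicle in humanized liver, 0 of 7 in edgeR and 0 of 7 in DESeq2, with 0 at an unadjusted p under 0.05 in edgeR. The share of all tested genes that changed was 2.52%, with 1.32% higher and 1.19% lower, and the groups of no member were without overlap, against 9.95% of all tested genes. Cyp3a13 changed by -0.11 ± 0.26 (adjusted p = 0.874), and the first treated mouse lay above all vehicle mice while the other 3 lay within their range. For Cyp3a57 the fitted change was -0.49 ± 0.34 (adjusted p = 0.492), with 2 of 4 treated mice below all vehicle mice. For Cyp3a59 it was -0.85 ± 0.65 (adjusted p = 0.532), with 3 of 4 below. These intervals do not show that the levels were alike. Cyp3a11 gave 0.03 ± 0.71 (adjusted p = 0.994), a value that changed sign in several alternatives, and Cyp3a25, with 7 counts against 1, a vehicle-to-TCPOBOP ratio of 6.44 with an interval from 0.827 to 290.1 (adjusted p = 0.444). For Cyp3a16, Cyp3a41a, Cyp3a41b and Cyp3a44 both groups were at or under 3 counts, and no fold is given. Among the cell type markers the stellate Colec11 fell (-1.04 ± 0.21) and the enterocyte Fabp2 rose (0.98 ± 0.24), and no other passed the test. The part of these shifts in the members' values was not tested.

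**Figure D4:**
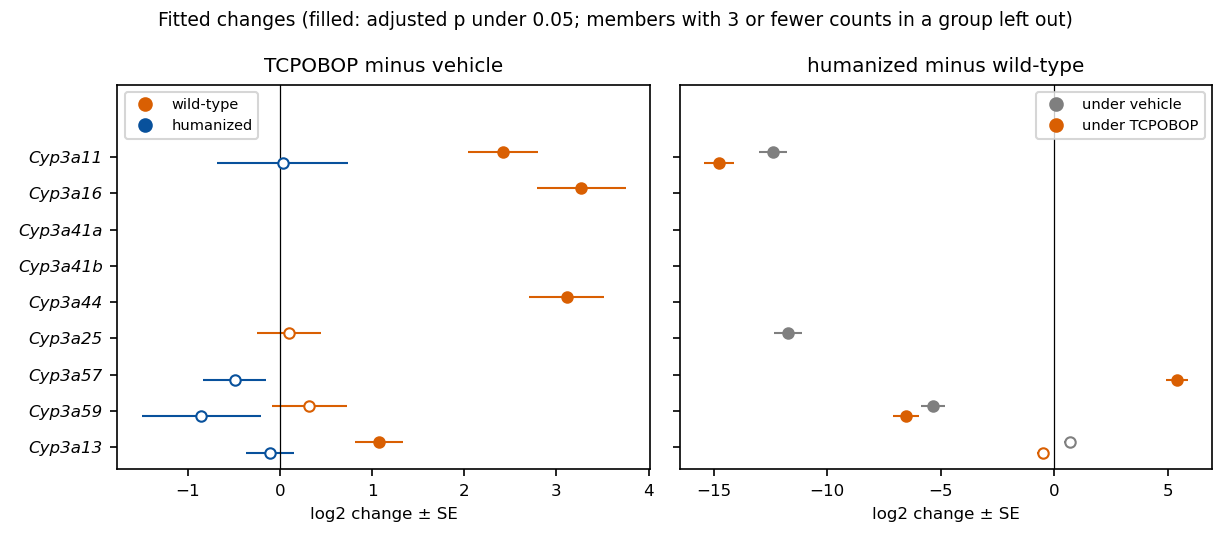
Log2 change ± SE (edgeR) of the Cyp3a members, with filled points at adjusted p under 0.05. Left, TCPOBOP minus vehicle in wild-type and in humanized mice; right, humanized minus wild-type under vehicle and under TCPOBOP. Members with 3 or fewer counts in a group are left out of that comparison; in wild-type liver Cyp3a11, Cyp3a16, Cyp3a44 and Cyp3a13 lie at 1.08 to 3.27, and in the right panel Cyp3a57 lies far to the right.

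The strains' responses were also compared directly, as the difference of the 2 TCPOBOP effects. Of the 7 members 1 passed the test, against 7.46% of all tested genes, 3.48% with the higher and 3.98% with the lower effect in humanized mice. It was Cyp3a16 (adjusted p = 0.0312), which entered the fit only through the wild-type TCPOBOP mice. Its humanized counts were 3 under vehicle against 0 under TCPOBOP, so no size is given for the difference, and the call was lost without any 1 of 7 of the 16 libraries, namely wild-type vehicle 3, wild-type TCPOBOP 3 and 4, humanized vehicle 1, 3 and 4, and humanized TCPOBOP 3, with adjusted p up to 0.0841. The member with ample counts in both strains was Cyp3a13. Its difference was -1.19 ± 0.36 with adjusted p = 0.0525, and adjusted p ranged from 0.011 to 0.109 over 21 alternatives, of which 7 passed. These included DESeq2 (adjusted p = 0.0283) and the fits without wild-type vehicle 1 or 2, wild-type TCPOBOP 2, humanized vehicle 1 or humanized TCPOBOP 1. For Cyp3a11 the difference was -2.39 ± 0.82 (adjusted p = 0.0869), on at most 8 counts per humanized library; it passed in DESeq2 (adjusted p = 0.0187) and without the fourth wild-type vehicle mouse (adjusted p = 0.0145). For the cluster members other than Cyp3a57 the low humanized counts limit this comparison. For Cyp3a57 the wild-type counts limit it, with 1 under vehicle and 7 under TCPOBOP. Its difference was -1.89 ± 1.15 (adjusted p = 0.372).

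The other genes of the pathway were taken from lists of regulators, partners and shared targets. Their counts stand beside the shares over all tested genes: with TCPOBOP 8.1% rose and 4.99% fell in wild-type liver, and 1.32% rose and 1.19% fell in humanized liver. Of 20 tested CAR and PXR targets outside the family, 17 rose and 0 fell with TCPOBOP in wild-type liver, with a median change of 2.64 against -0.02 over all genes. Cyp2b10, the classic CAR target, went from 48.2 to 3200 CPM (6.05 ± 0.49, adjusted p = 2.44e-07), and the carboxylesterase Ces2a from 604 to 6421 CPM (3.41 ± 0.21, adjusted p = 8.81e-09). In humanized liver 4 of the 20 rose, with a median of 0.41 against 0.02. Cyp2b10 was among them, from 17.4 to 105 CPM (2.59 ± 0.42, adjusted p = 0.00434), as was Aldh1a1, a retinaldehyde dehydrogenase. The difference between the strains passed for 9 of 20, all with the lower effect in humanized mice, which 3.98% of all tested genes also showed.

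Among 22 tested transcriptional regulators of Cyp3a genes, 2 fell and 0 rose with TCPOBOP in wild-type liver, beside 4.99% and 8.1% of all tested genes. They were Nr1i3 (-0.94 ± 0.19, adjusted p = 0.00198) and Ppargc1a, a coactivator (-1.12 ± 0.31, adjusted p = 0.0227). Nr1i2, the mouse PXR gene, was at 136 and 118 CPM (-0.21 ± 0.19, adjusted p = 0.554). In humanized liver 0 of 22 changed with TCPOBOP. Between the strains under vehicle 4 were lower, among them Nr1i3 (-5.50 ± 0.24), Nr1i2 (-2.85 ± 0.20) and Rxra, the shared dimer partner (-0.61 ± 0.18), and 1 was higher, Nr0b2, a corepressor (1.00 ± 0.29), against 8.95% lower and 7.11% higher over all genes. The median over the regulators in wild-type TCPOBOP mice was -0.20.

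Of 15 genes for electron transfer and heme supply to cytochrome P450 enzymes, 4 rose and 0 fell in wild-type liver. Among them were Por, the reductase (730 to 1754 CPM, 1.26 ± 0.31, adjusted p = 0.0105), Cyb5a, cytochrome b5 (717 to 1611 CPM, 1.17 ± 0.19, adjusted p = 0.000363) and the heme-binding Pgrmc1 (0.76 ± 0.19). In humanized liver 1 of 15 rose, the heme synthesis enzyme Cpox (65.1 to 117 CPM, 0.84 ± 0.19, adjusted p = 0.0278). Median changes were 0.24 and 0.26, against -0.02 and 0.02 over all genes.

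Cyp3a16, Cyp3a41a, Cyp3a41b and Cyp3a44 are known as female or perinatal forms, so lists of sex-biased and fetal liver genes were read beside them. Of 10 tested female-biased genes 1 rose with TCPOBOP in wild-type liver, the sulfotransferase Sult3a1 (0.0462 to 7.99 CPM). Sult3a1 entered the fit only through the wild-type TCPOBOP mice, so its call is tied to that entry. Of the same 10 genes 5 fell, among them Cyp2c69, Acot3 and Cyp2c40. Of 15 male-biased genes 1 rose and 6 fell, among them Susd4 and Cyp7b1, the oxysterol hydroxylase. Of the 7 fetal and neonatal genes 2 had enough counts for the test and neither passed. Median changes were -1.54 for the female-biased and -0.29 for the male-biased genes. The labels give no sex, and Ddx3y, a Y-linked gene looked up after the values were seen, held 204 to 1436 counts in every one of the 16 libraries, with Xist at 0 to 6 counts.

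Genes next to the family were compared between the strains, because the cluster sits where the humanized line differs by design. Within 1 Mb of the cluster 22 genes were tested. Under vehicle 2 passed the test as higher in humanized mice and 0 as lower, against 7.11% and 8.95% of all tested genes, so the number of higher genes was near the background. They were Cpsf4, a factor of messenger RNA 3′-end processing (0.61 ± 0.17), and Rpl21, a ribosomal protein gene (1.27 ± 0.37). Under TCPOBOP 6 were called higher and 0 lower, against 11.8% and 12.8% of all tested genes. Under vehicle the nearest tested genes on each side were Zscan25 at 54.0 kb (0.13 ± 0.24, adjusted p = 0.72) and Rnf6 at 95.9 kb (-0.38 ± 0.19, adjusted p = 0.157). Usp12 (-0.76 ± 0.34, adjusted p = 0.125) and Smurf1 (-0.48 ± 0.22, adjusted p = 0.129), chosen after their values were seen, lay below every wild-type vehicle mouse in 4 of 4 humanized mice without passing the adjusted threshold. More genes lay wholly above the wild-type vehicle mice without passing, namely Gtf3a, Pdap1, Atp5j2, Bud31, Mtif3, Zkscan5 and Polr1d. Groups without overlap under vehicle were seen for 26.4% of all tested genes. Of the 6 cluster members tested under vehicle 4 were called lower. Within 250 kb of Cyp3a13, 14 genes were tested. Of these 2 were higher in humanized mice under vehicle, Zfp113 and Zcwpw1, and 4 under TCPOBOP, Zfp113, Zkscan1, Mepce and Ppp1r35, against 7.11% and 11.8% of all tested genes, and 0 were called lower under either. In wild-type liver Zfp113 and Zkscan1 fell with TCPOBOP (-1.03 ± 0.20 and -0.97 ± 0.25) where Cyp3a13 rose.

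**Figure D5:**
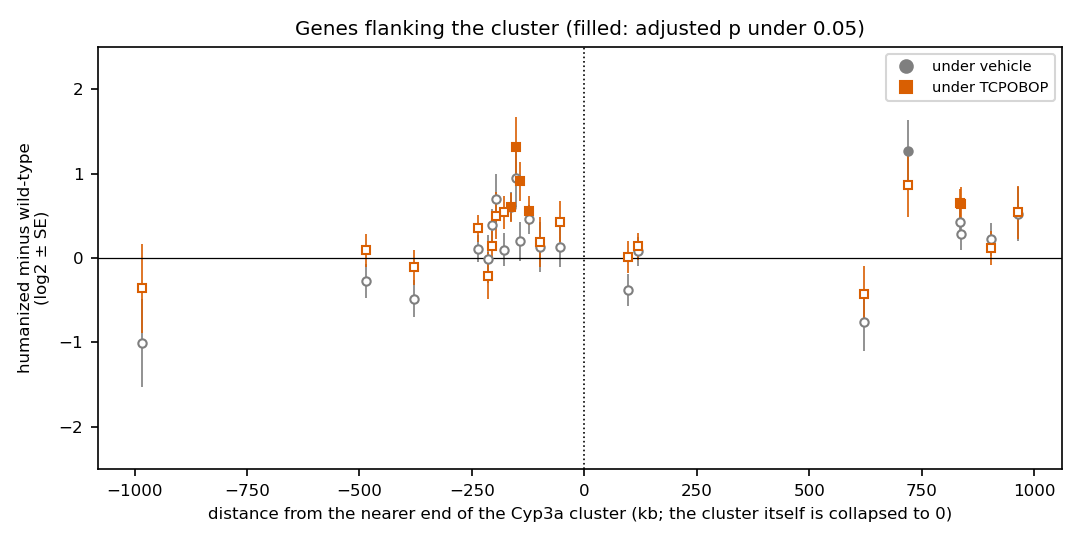
Log2 difference ± SE (edgeR) between humanized and wild-type mice for the 22 tested genes within 1 Mb of the Cyp3a cluster, by distance from its nearer end (kb); circles are vehicle mice, squares TCPOBOP mice, and filled symbols have adjusted p under 0.05. The filled symbols all lie above 0, and the nearest genes at 54.0 and 95.9 kb are open under both conditions.

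By the root mean square difference of centred log2 CPM over the 16 libraries, Cyp3a25 (1.40) was the member nearest Cyp3a11, and Cyp3a59 was at 3.88. The measure spans both strains, and Cyp3a11 and Cyp3a25 were both near 0 in the humanized mice. Within wild-type liver they parted, with TCPOBOP changes of 2.42 ± 0.38 for Cyp3a11 and 0.10 ± 0.35 for Cyp3a25. With the family members left out, the genes most like Cyp3a11 were Krt4 (4.29), Nr1i3 (4.52) and Slc34a2 (4.75), of 9754 candidates with a mean of at least 5 CPM. The value for Cyp3a11 against a flat gene is 6.71 and the median over candidates 6.72, so the closest genes outside the family followed it loosely. Krt4, a keratin, was at 13.4, 60.4, 0.0291 and 0.138 CPM in the order of groups used above, the closest in shape of the 3. For Cyp3a13 the closest outside the family were Fas (0.24), Nasp (0.24) and Psmd14 (0.25), against 0.53 for a flat gene and a median of 0.64. These are descriptions over libraries that share groups, and carry no test.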

How the data were processed

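Polyadenylated liver RNA of 16 mice was sequenced. The submitters' processing notes name STAR, DESeq2 and mm10, and the labels name Trizol, poly(A) selection and a NEBNext kit. Versions, the counting program and strandedness are not stated there. Counts per RefSeq transcript, whole numbers made by the authors, were used as deposited. Of counts of 20 or more, 74.9% were even, against 75% for values divided by 2 and rounded to even numbers, so floors of 3 counts per group and 95% exact intervals are approximate and cover at most counting error. Of 40458 accessions, 40219 were joined to symbols through the RefSeq table and 125 through GENCODE M21, and each gene kept its accession with the highest mean count. Libraries were compared in pairs and none agreed within sampling noise.

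All 16 libraries were fitted in edgeR 4.0.16 (limma 3.58.1, R 4.3.3) with filterByExpr, TMM and two-sided quasi-likelihood tests. The 5 comparisons set TCPOBOP against vehicle in either strain, took the difference of these effects, and set humanized against wild-type mice under each treatment. Of the 9 members 7 passed the filter. The 2 others had an exact permutation test, run only where a group held more than 3 counts. CPM per kb used GENCODE transcript lengths. The fit was tested on simulated data. All members are named, with up to 4 called genes of smallest p per list, the nearest genes and the 3 most similar genes outside the family. The values of 1 called list gene are not reported here. The members and the 13 lists were chosen with earlier results of these data known. Alternatives were DESeq2 1.42.0, no filter, another row per gene, thinning, fewer groups, a replicate term, libraries left out and library totals without TMM.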

Additional observations from a re-analysis of the deposited data

Results flagged for a closer look

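In 6 of the 35 sets of 4 libraries with unequal values, 1 library stood apart by the gap between it and the others. The usual rate of about 1 in 20 does not apply here, because any set with counts in only 1 library is always flagged. Each of the 6 was a single count in an otherwise empty group: Cyp3a25 at 0.102 CPM in a humanized TCPOBOP mouse, Cyp3a41a and Cyp3a41b at 0.116 CPM in a humanized vehicle mouse, Cyp3a41a and Cyp3a41b at 0.102 CPM in a humanized TCPOBOP mouse, and Cyp3a57 at 0.0939 CPM in a wild-type vehicle mouse. The paired values of Cyp3a41a and Cyp3a41b rest on the same libraries and on nearly the same sequence.

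The TCPOBOP effect on Cyp3a16 passed the edgeR test of the difference between the strains, with a fitted value of -6.46 on the log2 scale, humanized minus wild-type. The humanized side holds 3 counts against 0, so this value depends on the prior count and is not a measured size. The call was lost without any 1 of 7 of the 16 libraries, and Cyp3a16 had too few counts for the test after thinning.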

How the results depend on the processing

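The 32 fitted member changes were recomputed under 20 to 22 alternatives each: 668 values kept direction and side of the threshold, 13 newly passed it, 7 no longer did and 6 changed sign. The sign changes were Cyp3a25 in wild-type liver without vehicle mouse 2 (-0.19; range 0.34 down to -0.19 over libraries left out) and Cyp3a11 in humanized liver with the replicate block (-0.02) or without 1 library (-0.33 to 0.33). The causes were not tested. All 40 CPM means moved by less than 1 SD without TMM.

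Leaving out 1 library, the number of members called stayed at 4 in wild-type liver and 0 in humanized liver, and was 0 to 2 for the difference between strains, 5 to 6 between strains under vehicle and 6 to 7 under TCPOBOP. For that difference DESeq2 called 3, the block 2 and thinned counts 0, where Cyp3a16 had too few counts. Over all genes, counts of calls ranged from 1048 to 2169 (1691 with all libraries), 70 to 961 (325), 579 to 1781 (963), 625 to 3403 (2074) and 1999 to 4135 (3175) in the same order of comparisons. The humanized count was 770 in DESeq2, 185 with its own 2 groups and 209 with the block, and that of the difference 1471 in DESeq2. Without a filter 6 of 9 members rose in wild-type liver, where 1675 genes in all were called in either direction, against 1691 with the filter. The added members were Cyp3a41a and Cyp3a41b, which share most of their sequence. They held 34 and 22 counts in wild-type TCPOBOP mice and 0 in wild-type vehicle mice. The larger count of members therefore adds no support.

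Replicate numbers did not pair mice throughout: 6 of 24 same-number pairs correlated above 0.1 and 5 of 16 libraries correlated best with their own number. The 24 values ran from -0.244 to 0.581. Between the wild-type groups they were 0.0998, 0.581, 0.218 and 0.176 for numbers 1 to 4. Whether some numbers share a batch was not tested. With the block the difference for Cyp3a13 passed (-1.27, adjusted p = 0.0363), as did its strain difference under vehicle (0.76, adjusted p = 0.0451). The fit on only the compared groups was not run for the difference, which uses all 4. In humanized mice counts of 0 to 8 per library limit every statement on the cluster apart from Cyp3a57 and, under vehicle, Cyp3a59. Under TCPOBOP Cyp3a59 held 2 to 18. For Cyp3a57 the wild-type counts, at most 4 per library, set the limit.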
